A study of Mus musculus with 2 samples.

Results

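The 9 genes described here handle vitamin A in the liver: they store and carry retinol, convert it to retinoic acid and read the retinoic acid signal. They were Aldh1a1, Aldh1a2, Aldh1a3, Rbp4, Lrat, Rara, Rarb, Rdh11 and Dhrs3, chosen as the genes whose RefSeq transcript is named as the target of a non-control probe, and 11 probes met that rule. The array held 20284 genes that could be named in this way, and 55681 probes in all. The study injected recombinant TSG-6, a protein that binds hyaluronan outside cells, intravenously to male C57BL/6 mice with liver fibrosis, and PBS, the vehicle, to fibrotic mice of the same sex and strain. Liver RNA was taken 2 weeks later, equal amounts from 3 mice of a group were combined, and each mixture was hybridised to 1 single-colour Agilent array, so that the groups were 1 TSG-6 pool and 1 PBS pool. Every mouse in both pools carried fibrosis. The agent that caused it and the age of the mice are not given in the sources used here, and no liver without fibrosis was analysed here.

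Retinol reaches the liver from the diet and is esterified there by lecithin:retinol acyltransferase, the product of Lrat, mainly in hepatic stellate cells, which keep the esters in lipid droplets and lose them when they turn into collagen-producing myofibroblasts. Stored retinol leaves the liver bound to Rbp4, the plasma retinol carrier made by hepatocytes. Inside cells, retinol is oxidised to retinaldehyde in a reversible step, and retinaldehyde dehydrogenases of the Aldh1a family turn retinaldehyde irreversibly into retinoic acid, the ligand of the nuclear receptors Rara and Rarb.

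Neither pool had a replicate array, so nothing was tested and no p-value appears: each difference compares these 2 mixtures of RNA only. The errors printed (±) are those the scanner software gives for the spot signals, carried over to the log2 difference, and leave out the spread between mice and between arrays. A level is the log2 signal after subtraction of the log2 75th percentile of the same array. A difference is the TSG-6 level minus the PBS level. The signal at that percentile was 2476 on the TSG-6 array and 3158 on the PBS array, so equal raw signals correspond to a higher level in the TSG-6 pool. Spots marked as outliers by the software were left out of the gene values but kept in that percentile. They were 6.44% of spots on the TSG-6 array and 3.40% on the PBS array. Their median signal was 5421 on the TSG-6 array, against 178 over all its spots. On the PBS array it was 5881, against 210. Of the 15151 genes with a value from each array, 8708 lay above 0, with a median difference of 0.08. The TSG-6 pool was higher by 2-fold or more for 2.94% of them and lower by as much for 4.29%. These shares moved with the scaling. They were 1.25% higher and 9.21% lower with spike-in scaling. With the percentile over unmarked spots they were 6.72% higher and 2.48% lower. Spike-in scaling lowered every difference alike, to a median of -0.29 over all genes. Of 10 hepatocyte markers, which define the tissue, 2 were lost to outlier marks and 1 had no probe. The 7 with usable spots, among them Alb and Hnf4a, were all well above background on both arrays.

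Of the 9 genes, 8 were measured on both arrays, and Lrat had an outlier mark on its TSG-6 spot. In the TSG-6 pool 1 of these 8, Aldh1a2, was lower by 2-fold or more, against 4.29% of all measured genes, and 1, Aldh1a3, was higher by as much, against 2.94%. The background for either direction was 7.23%. Both encode retinaldehyde dehydrogenases, so the members that differed most sit at the same enzymatic step and lay on opposite sides. The other 6 differed by -0.42 to 0.91 on the log2 scale. The median over the 8 was 0.27.

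**Figure D1:**
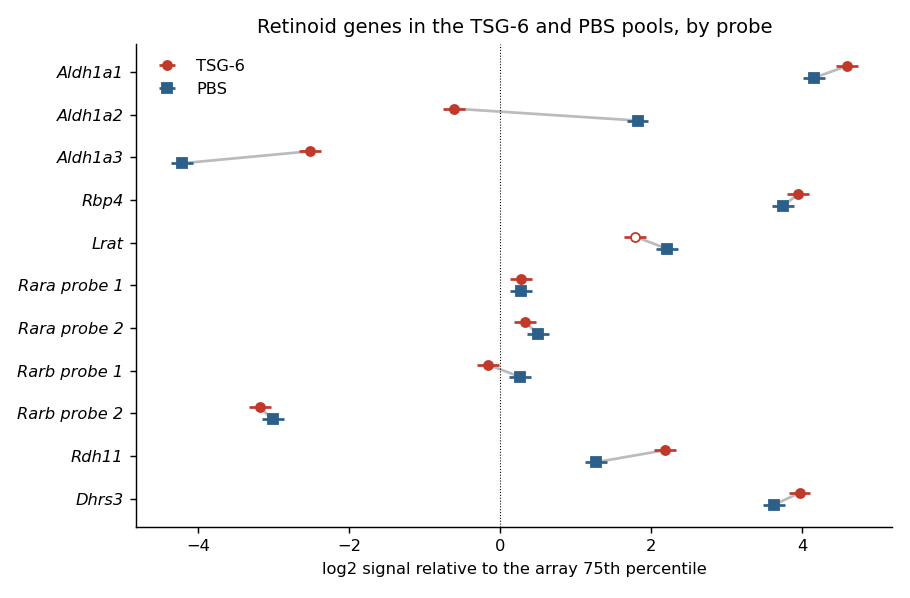
Level of each probe of the retinoid genes, as log2 signal relative to the array's 75th percentile, in the TSG-6 pool (circles) and the PBS pool (squares), with the software's signal error as bars. The pools are far apart for Aldh1a2 and Aldh1a3, and the open circle of Lrat is a spot with an outlier mark; positions compare pools within a probe, not probes.

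Retinoic acid synthesis showed the widest range. Aldh1a2 encodes the retinaldehyde dehydrogenase that supplies most retinoic acid in the mouse embryo and is found in adult tissue in mesothelium, stromal cells and some dendritic cells. Its probe gave a signal of 1622 ± 162 on the TSG-6 array and of 11140 ± 1114 on the PBS array. In the TSG-6 pool its level was 65.5% of the array's 75th percentile, against 353% in the PBS pool. The difference was -2.43 ± 0.20, or 5.39-fold lower. Only 73 of the 15151 measured genes had a lower difference. Among the 500 genes nearest to it in mean level, whose differences had an SD of 0.56, 2 lay lower. In whole liver, fewer cells of a type and less RNA per cell cannot be told apart.

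The window upstream of Aldh1a2 is shown because this member differed most. RefSeq's promoter table (GRCm38.p6) matched 8 of the 9 members, in 16 windows of 300 bases that run from 250 bases before to 50 after each start. That of Aldh1a2 was among the richest in CpG, with 50 CpG and 78.0% G and C, more CpG than 99.1% of the 32851 windows of all genes. It held 1 match to CCAAT, a motif present on either strand in 37.4% of all windows. The 250 bases before the start, chr9:71215539-71215788 on the plus strand, are printed with the CCAAT match in capitals.
Aldh1a2: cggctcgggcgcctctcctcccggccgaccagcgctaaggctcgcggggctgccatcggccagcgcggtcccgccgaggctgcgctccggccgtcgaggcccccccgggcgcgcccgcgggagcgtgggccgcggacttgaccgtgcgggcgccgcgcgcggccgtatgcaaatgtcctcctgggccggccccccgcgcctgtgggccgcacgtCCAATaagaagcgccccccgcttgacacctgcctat

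Aldh1a3, which encodes the third enzyme of the family, was dim. Its signal was 431 ± 43.3 on the TSG-6 array and 170 ± 17.9 on the PBS array, well above background on both. That placed it 3.23-fold higher in the TSG-6 pool, a difference of 1.69 ± 0.21. Of all measured genes 102 had a higher difference, and of the 500 nearest in level 6 did. Both spots thus lay in the dim range, where differences spread more: the 500 genes nearest in level had an SD of 0.67, and 10% of them were past 2-fold. Under normexp background correction its difference was 1.31.

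Aldh1a1, the retinaldehyde dehydrogenase abundant in the liver, was bright in both pools. It reached a signal of 59763 ± 5976 on the TSG-6 array and 56149 ± 5615 on the PBS array, and neither spot was saturated. Its difference was 0.44 ± 0.20, which is 1.36-fold higher. The 500 genes of similar level had a median difference of 0.34 with an SD of 0.21, so Aldh1a1 lay within the spread of equally bright genes. After loess on the signal its difference was 0.12 and after quantile normalization 0.07. The other measured enzymes of the list for retinoic acid synthesis, Aldh1a7, Aldh8a1 and Aox1, were under 2-fold. Of the 6 measured on that list 5 lay above 0, with a median of 0.43 against 0.08 over all genes. With spike-in scaling the median of the list was 0.07, against -0.29 over all genes.

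**Figure D2:**
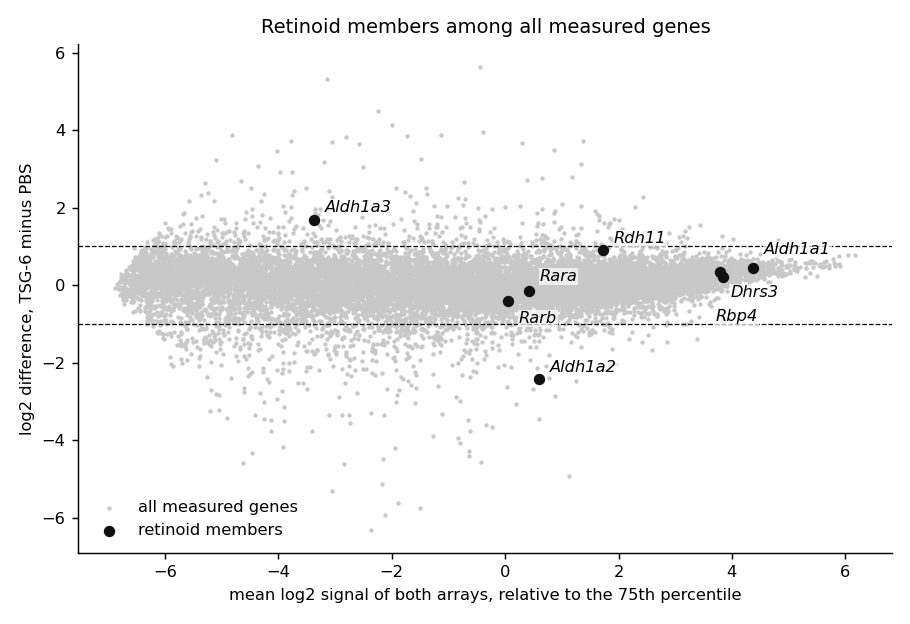
Log2 difference, TSG-6 minus PBS, against the mean level of both arrays for every gene measured on both (grey) and for the 8 measured retinoid members (black); dashed lines mark 2-fold. Aldh1a2 and Aldh1a3 lie outside the lines, and the bright members Aldh1a1, Dhrs3 and Rbp4 lie inside the band of equally bright genes.

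Storage and transport genes differed less. Rbp4 gave a signal of 38168 ± 3817 on the TSG-6 array and of 42256 ± 4226 on the PBS array. Relative to each array its difference was 0.20 ± 0.20, about the size of the signal error, and it was -0.16 with the arrays scaled to their spike-in controls. Lrat, the enzyme that forms retinyl esters and a marker of vitamin A storing stellate cells, had a signal of 8553 on the TSG-6 array, on a spot the software marked as non-uniform, and of 14561 on the PBS array. With the marked spot kept, Lrat was 1.33-fold lower in the TSG-6 pool, a difference of -0.42 ± 0.20. The median pixel of that spot was dimmer than its processed signal, at 7136 on the TSG-6 array, against 14560 on the PBS array. Normexp, which used these median signals, gave -0.66 with the spot kept. The lower Lrat value of the TSG-6 pool thus rests on 1 spot marked as non-uniform.

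None of the 8 measured carrier and binding proteins passed 2-fold in either direction, and 7 lay above 0 with a median of 0.25. With spike-in scaling that median was -0.12, against -0.29 over all genes. The 2 on the list with the largest differences were the cellular retinoic acid-binding proteins Crabp2, at 0.80, and Crabp1, at 0.66. Crabp2 passes retinoic acid to its receptors in the nucleus. Among genes that form or hydrolyse retinyl esters, 1 of 8 measured was at least 2-fold lower and none higher. Over all measured genes 4.29% were lower and 2.94% higher by as much. The lower gene was Pnpla3, a lipase that in humans is described as hydrolysing retinyl esters in stellate cells as well as triglycerides in hepatocytes. It was 2.90-fold lower with its brighter probe, at signals of 1334 on the TSG-6 array and 4935 on the PBS array. Its 2 probes did not give the same value, with differences from -1.54 to 0.05. Lipe, the hormone-sensitive lipase, differed by 0.69. Of the carotenoid genes 2 were measured, and Bco2, a mitochondrial carotenoid-cleaving enzyme, was 2.16-fold higher while Scarb1, the carotenoid uptake receptor, differed by 0.03. Bco2 was under 2-fold with median scaling and with spike-in scaling, where it differed by 0.74.

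The enzymes that interconvert retinol and retinaldehyde lay mostly above 0. Rdh11 encodes a membrane-bound reductase that acts on retinaldehyde. It gave a signal of 11220 ± 1122 on the TSG-6 array and 7618 ± 762 on the PBS array, so it was the brighter in the TSG-6 pool even before scaling. Its difference of 0.91 ± 0.20, or 1.88-fold higher, stayed under 2-fold. Of 500 genes of similar level 14 had a higher difference. It passed 2-fold only with the 75th percentile taken over unmarked spots, of the 12 alternative settings.

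Dhrs3, a retinaldehyde reductase that retinoic acid itself induces, had nearly equal raw signals, 38601 ± 3860 on the TSG-6 array and 38931 ± 3893 on the PBS array. After scaling its difference was 0.34 ± 0.20, close to the median of 0.28 for genes of similar level, and -0.03 with spike-in scaling. Of 15 measured retinol and retinal dehydrogenases and reductases, 2 were at least 2-fold higher and none was 2-fold lower. Over all measured genes 2.94% were higher and 4.29% lower by as much. On this list 13 lay above 0, with a median of 0.27. With spike-in scaling that median was -0.10, against -0.29 over all genes. The 2 at least 2-fold higher were Rdh19 and Rdh16. Rdh19 was 3.13-fold higher, with signals of 311 on the TSG-6 array and 127 on the PBS array. Rdh16 was 2.98-fold higher, with signals of 15161 on the TSG-6 array and 6486 on the PBS array. Dhrs9 was just short of 2-fold lower, at -0.99, with signals of 138 on the TSG-6 array and 350 on the PBS array. It passed 2-fold lower in 5 of the 12 alternative settings. Genes of this family resemble each other in sequence, so the value of a single member is uncertain. Rdh10, the main retinol dehydrogenase of the mouse embryo, differed by 0.23.

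**Figure D3:**
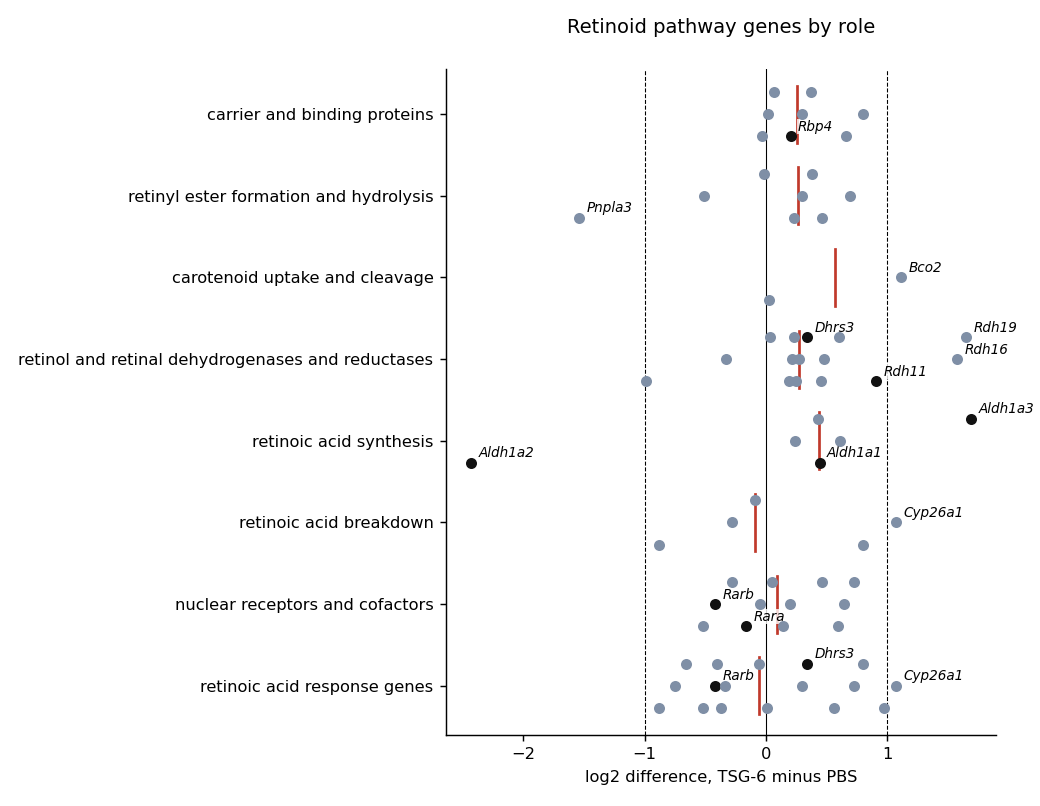
Log2 difference, TSG-6 minus PBS, of every measured gene on the retinoid lists, by role; black points are members, grey points other genes, red bars list medians and dashed lines 2-fold. Most lists have their median slightly above 0 at this scaling, and retinoic acid synthesis spans the widest range, from Aldh1a2 at -2.43 to Aldh1a3 at 1.69.

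The retinoic acid receptors were close to equal between pools. Rara, the receptor present in most cells, was read by 2 probes. The brighter gave 3121 ± 312 on the TSG-6 array and 4454 ± 445 on the PBS array, a difference of -0.16 ± 0.20, and the other gave -0.002 ± 0.20, so that neither exceeded its signal error. Rarb, a receptor whose gene is itself a target of retinoic acid, also had 2 probes. The brighter gave 2217 ± 222 on the TSG-6 array and 3782 ± 378 on the PBS array, a difference of -0.42 ± 0.20, or 1.34-fold lower. Its other probe was much dimmer, at 273 on the TSG-6 array and 393 on the PBS array, and differed by -0.18 ± 0.21. Both probes of Rarb thus read lower in the TSG-6 pool by less than 2-fold. With each gene read from its brightest probe, none of the 12 measured receptors and cofactors passed 2-fold and 7 lay above 0. Their median was 0.09, with a range from -0.27 to 0.38 over the settings. The corepressor Nrip1, at 0.73, and the retinoid X receptor Rxrg, at 0.64, had the largest differences on that reading. The related receptor Rxra differed by 0.59 with its brighter probe and was just past 2-fold higher with its other probe.

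Retinoic acid response genes did not lie on 1 side. Of the 17 measured, 1 was at least 2-fold higher and none was 2-fold lower, against 2.94% and 4.29% of all genes. Above 0 lay 8 and below 0 lay 9, and the median was -0.06 against 0.08 over all genes. Over the settings that median ran from -0.43 to 0.23. The gene past 2-fold was Cyp26a1, the hydroxylase that breaks down retinoic acid and that retinoic acid induces in liver. Its signal was 20257 on the TSG-6 array and 12267 on the PBS array, 2.11-fold higher. Cebpe, a transcription factor of granulocyte maturation, followed with a difference of 0.97. On the list for retinoic acid breakdown, where 5 genes were measured and Cyp26a1 alone passed 2-fold, the related hydroxylase Cyp26b1 differed the other way, by -0.88, with signals of 3975 on the TSG-6 array and 9362 on the PBS array. Cyp26a1 was under 2-fold in 5 of the 12 alternative settings, with a range from 0.71 to 1.36.

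The promoters of Rarb and Cyp26a1 are shown because both hold a match to the classical response element and the genes differed in opposite directions. The element searched was a direct repeat with 5 bases between its units, called DR5. The unit was AGGTCA, with G allowed for A at its start and T for the second G, and both strands were read. It was found in 1 of the 16 member windows, that of Rarb, and in 0.0974% of the windows of all genes. The Rarb match lay 53 to 37 bases before the start. The match in the Cyp26a1 window lay 32 to 16 bases before the start, on the opposite strand. Direct repeats with 1 or 2 bases between the units were in none of the member windows, against 0.222% and 0.268% of all windows. Printed are the 250 bases before each start, chr14:16575477-16575726 on the minus strand for Rarb and chr19:37697558-37697807 on the plus strand for Cyp26a1, with the DR5 match in capitals.
Rarb: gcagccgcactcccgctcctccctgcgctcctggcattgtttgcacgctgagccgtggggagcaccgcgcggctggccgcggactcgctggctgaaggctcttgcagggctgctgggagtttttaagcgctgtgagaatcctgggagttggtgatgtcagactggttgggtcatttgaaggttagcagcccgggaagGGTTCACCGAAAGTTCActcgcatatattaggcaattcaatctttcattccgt
Cyp26a1: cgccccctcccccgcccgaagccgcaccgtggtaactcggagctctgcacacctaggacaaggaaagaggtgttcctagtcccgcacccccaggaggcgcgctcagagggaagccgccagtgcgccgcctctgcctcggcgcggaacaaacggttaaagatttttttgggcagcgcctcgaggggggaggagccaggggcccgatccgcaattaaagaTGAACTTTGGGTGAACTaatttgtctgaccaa

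A DR5 match was present in a promoter window of 31 genes, of which 9 were measured on both arrays. Cyp26a1 was the 1 at least 2-fold higher and none was 2-fold lower, against 2.94% and 4.29% of all measured genes. Of the 9, 5 lay above and 4 below 0, and the median difference was 0.11. Rarb had the next to lowest value of these, after Syndig1 at -0.51. A match describes these letters and is not evidence of receptor binding in these livers.

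Markers of cell types that use the pathway differed in direction. Of 13 measured markers of activated stellate cells and myofibroblasts, 4 were at least 2-fold lower and none higher. Over all measured genes 4.29% were lower and 2.94% higher by as much. All 13 markers lay below 0 and the median was -0.96, between -1.33 and -0.67 over the settings. The count past 2-fold lower ran from 3 with the percentile over unmarked spots to 8 with spike-in scaling. The shares of all genes that were as much lower were 2.48% and 9.21% in these 2 settings. Acta2, the smooth muscle actin of myofibroblasts, differed by -2.47, close to Aldh1a2, followed by Cthrc1 at -1.91 and the collagen cross-linking enzyme Lox at -1.64 with its brighter probe and -0.43 with the other. The summed scaled level of the list, in units of the 75th percentile, was 41.4 in the TSG-6 pool and 65.5 in the PBS pool.

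All 8 measured mesothelial markers lay below 0 as well, with a median of -0.35, between -0.72 and -0.06 over the settings, and none past 2-fold. Their largest differences were -0.61 for Upk1b, -0.55 for Wt1 and -0.43 for Upk3b. The summed level of this list was 4.14 in the TSG-6 pool and 5.28 in the PBS pool. Dendritic cell and macrophage markers had a median of -0.02 over 9 genes, between -0.39 and 0.27 over the settings. Of the 9, 2 were at least 2-fold lower, against 4.29% of all measured genes. These were Ccr7 at -1.45 and the integrin Itgax at -1.43, while Xcr1 differed by 0.89. The summed level of the 9 was 23.8 in the TSG-6 pool and 27.3 in the PBS pool. The part of these cell types in the lower Aldh1a2 value was not tested.

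Markers of quiescent stellate cells, the vitamin A storing state, had a median of 0.35 over 11 measured genes. With spike-in scaling it was -0.02, against -0.29 over all genes. Of the 11 markers, 1 was at least 2-fold higher, Hhip, at 2.35 with its brighter probe and 1.21 with the other. The 1 at least 2-fold lower was the intermediate filament gene Des, at -1.23. Over all measured genes 2.94% were higher and 4.29% lower by 2-fold or more. The 2 probes of Vipr1 differed by 0.62 and -0.04. Their summed level was 48.2 in the TSG-6 pool and 37.6 in the PBS pool. Lrat, also a marker of this state, had a value below 0 with its marked spot kept. Of the 11 markers measured without marked spots, 8 lay above 0. With marked spots kept, Hand2 at -0.11 and Rgs5 at -0.15 also lay below 0, and Colec11 at 0.76 lay above.

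Hepatocyte markers were all slightly above 0, with 7 of 7 between 0.17 and 0.53 and a median of 0.36, against 0.08 over all genes. The median was -0.01 with spike-in scaling, against -0.29 over all genes. It was -0.02 after quantile normalization and 0.03 after loess, against -0.03 and -0.06 over all genes. The summed level of the hepatocyte markers was 184 in the TSG-6 pool and 143 in the PBS pool. The largest were Serpina1a at 0.53, Fgb at 0.43 and Alb at 0.37. Aldh1a1, Rbp4 and Dhrs3, at 0.44, 0.20 and 0.34, lay inside the hepatocyte marker range of 0.17 to 0.53. Sinusoidal endothelial markers had a median of 0.19 over 7 genes. With spike-in scaling it was -0.18, against -0.29 over all genes. Clec4g and Kdr differed by 0.39, Stab2 by 0.27 and Lyve1 by -0.26. Of the 7, 6 lay above 0 and 1 below. The summed level of the endothelial list was 39.3 in the TSG-6 pool and 33.8 in the PBS pool. Bile duct markers had a median of -0.02 over 5 genes, between -0.39 and 0.27 over the settings, with Spp1 at -0.82 and Krt19 at -0.29, and summed to 9.68 in the TSG-6 pool and 15.9 in the PBS pool. Spp1, with a log2 level of 3.01 in the TSG-6 pool and 3.83 in the PBS pool, made up most of both sums. Cftr was not well above background on either array.

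**Figure D4:**
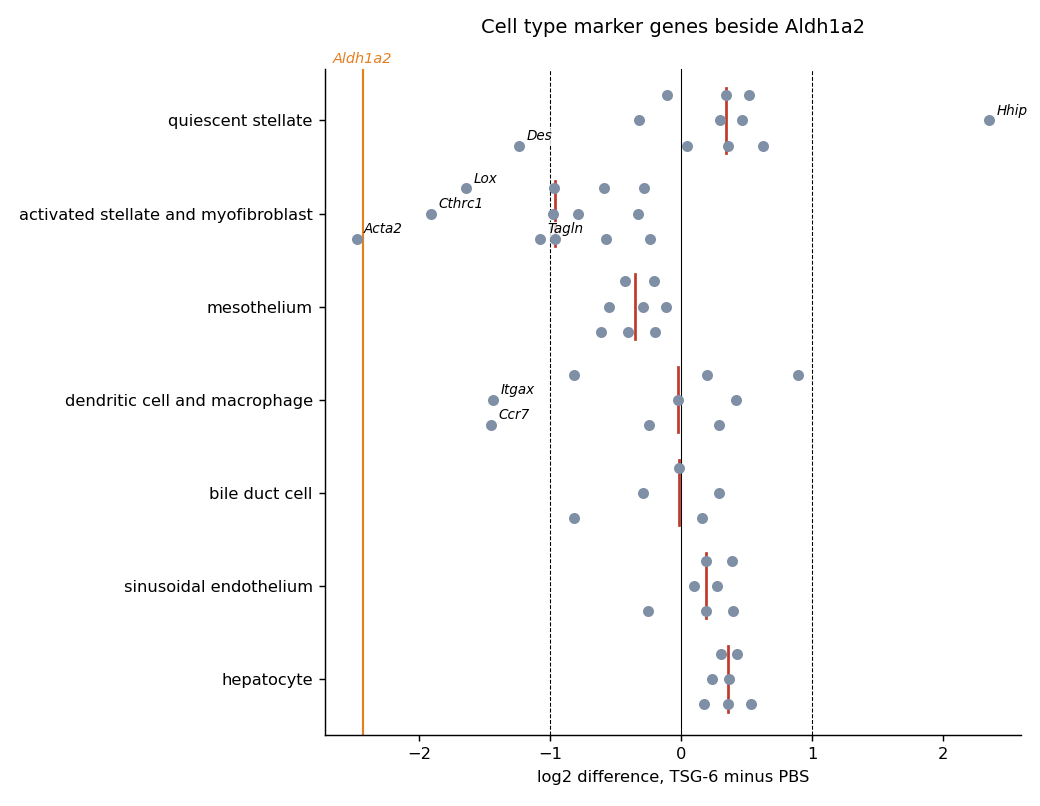
Log2 difference, TSG-6 minus PBS, of the measured genes on each cell type marker list; red bars are list medians, dashed lines 2-fold and the orange line the value of Aldh1a2, -2.43. Acta2 lies beside that line, all markers of activated stellate cells and of mesothelium lie below 0, and the hepatocyte markers lie together just above 0 at this scaling.

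Over the 76 other genes of the retinoid lists, 57 were measured on both arrays, 13 lost their only usable spots to outlier marks and 6 were not well above background. Of the 57, 4 were higher in the TSG-6 pool by 2-fold or more and 1 was lower by as much. Above 0 lay 39 of the 57, against 8708 of all 15151 measured genes. The median of the 57 was 0.23 against 0.08 over all measured genes. With spike-in scaling it was -0.14, against -0.29 over all genes, with 2 of the 57 higher and 5 lower by 2-fold or more, where 1.25% of all genes were higher and 9.21% lower. The 4 were Rdh19, Rdh16, Bco2 and Cyp26a1, and the 1 was Pnpla3. The shares past 2-fold were 7.02% higher and 1.75% lower, against 2.94% and 4.29% of all measured genes. Stra6, the cell surface receptor for Rbp4, was among the genes not well above background.

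With 1 difference per gene, likeness to a member can only mean a similar difference. Among genes at or above the median level that are on none of the lists, the nearest to Aldh1a2 were Adam8 at -2.40, Tes at -2.63 and Arhgap22 at -2.67. Nearest to Aldh1a3 were Afmid at 1.68, Cyp2b13 at 1.70 and Odf3b at 1.67.

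**Figure D5:**
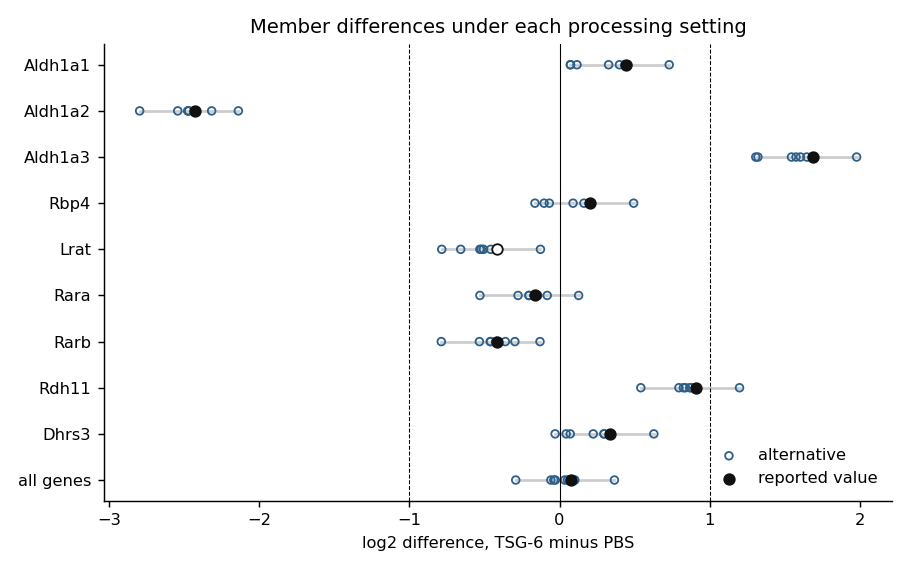
Log2 difference, TSG-6 minus PBS, of each member and the median of all genes under the reported setting (filled, open for Lrat, whose marked spot is kept) and the alternatives (small open circles); dashed lines mark 2-fold. Aldh1a2 stays below -1 and Aldh1a3 above 1 in each setting, while Rbp4, Rara and Dhrs3 have values on both sides of 0.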

How the data were processed

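Liver RNA of 1 TSG-6 pool and 1 PBS pool, each from 3 mice, was labelled with Cy3 from 0.2 ug, per the labels. Each spot's deposited value is an intensity from the scanner output, background-subtracted and detrended within the array by Agilent Feature Extraction 11.5.1.1, per the file headers; the submitters' processing notes name 10.7. The authors' value table holds deposited log2 values that equal the log2 processed signal minus 1 constant per array within 0.001 for 100% of 55249 probes with a single spot (column medians -3.77 for TSG-6 and -3.90 for PBS), so scale and direction are known.

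Control spots and outlier-marked spots were left out of the gene values. Levels were log2 of the processed signal minus the 75th percentile of all non-control spots, marked spots included. A probe was taken as measured if on each array 50% or more of its spots carried the software's mark for a signal well above background, and a gene was read from its brightest such probe. Accessions were matched to symbols through RefSeq (GRCm38.p6, names only; the array was designed on another build): 26762 of 55681 probes matched. Replicate spots of 327 probes gave an SD of 0.13 for the log2 difference. Members and lists were chosen with earlier results of these data known. Named genes were all members, from each retinoid list those past 2-fold and the 2 largest differences, and from each marker list the 3 largest; some genes are not reported here. No test was possible, and a difference was called at 2-fold. The steps were tested on simulated data. R 4.3.3 with limma 3.58.1 and Python 3.11.15 were used. The number of arrays limits the precision.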

Additional observations from a re-analysis of the deposited data

How the results depend on the processing

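Lower Aldh1a2 and higher Aldh1a3 in the TSG-6 pool kept their direction and stayed past 2-fold under all 12 alternatives, Aldh1a2 between -2.80 and -2.14 and Aldh1a3 between 1.31 and 1.98. The median difference of the members was -0.029 after quantile normalization, 0.0015 after loess, -0.10 after spike-in scaling and 0.56 with the percentile over unmarked spots; the last setting also made the members at least 2-fold higher 2, with Rdh11. The median of all genes moved with it, from -0.29 after spike-in scaling to 0.37 with the percentile over unmarked spots, a shift in scaling itself. Relative to that median, the settings ranged from 0.78 to 0.88 for Rdh11, from -0.50 to -0.37 for Rarb and from -0.07 to 0.15 for Rbp4. Of 96 member values under alternatives, 73 moved by less than their signal error, 23 by more, and 0 of the values past 2-fold changed sign. Lrat, with its marked spot kept, ran from -0.78 to -0.13 over 7 further settings chosen after seeing the data. The settings cannot stand in for replicates: with 1 pool per group, the spread between mice is unknown. No paired analysis was possible because each group has 1 array.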

Other observations

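The genes next to Aldh1a2 on chromosome 9, taken after their values were seen, did not share its difference. The nearest measured genes on one side were the hepatic lipase gene Lipc, at 0.44, and Adam10, at 0.18. On the other side Polr2m differed by 0.23 and Myzap by -0.93. The measured neighbours of Aldh1a3 on chromosome 7 were Chsy1 at -0.35, Lrrk1 at -0.12, Asb7 at 0.26 and Lins1 at -0.61, all under 2-fold. Beside Aldh1a1 on chromosome 19, at 0.44, lay Aldh1a7, close to it in sequence, at 0.61, the dim transcript E030003E18Rik at 1.45, Anxa1 at -0.20 and Rorb at 0.22.

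The hydroxylases of the Cyp26 family were split. Cyp26c1, dim at signals of 82.9 on the TSG-6 array and 60.9 on the PBS array, differed by 0.80, or 0.40 under normexp background correction, on the side of Cyp26a1 at 1.07 and opposite to Cyp26b1 at -0.88.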
